A study of Mus musculus with 13 samples.

Results

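Bcl11a, Cbfa2t3 and Myb encode regulators of gene expression in blood cells, and they were described across 13 RNA-seq libraries of mouse natural killer (NK) cells, lymphocytes of the innate immune system. They are 3 of the 11989 genes of the deposited table. They were chosen from these same data because their level was lost, or returned, in particular groups, so their levels and differences are given as a description and no test of them is reported. All cells were splenic and taken from C57BL/6 animals of wild-type genotype. HD IL-15 cells had been cultured for 72 hours in the growth and survival cytokine interleukin-15 and were then stimulated for 6 hours with an antibody to the activating receptor NK1.1 (n = 3) or left unstimulated (n = 2). LD IL-15 cells, also cultured for 72 hours, were sequenced after anti-NK1.1 alone (n = 2). Naive cells received the same antibody for 6 hours (n = 3) or none (n = 3). The labels do not spell out HD and LD, give no culture time for naive cells and name no transgene or deletion. They give no stimulation time for unstimulated cells, so whether those were held for the same 6 hours is not known here. They also do not say whether replicates came from separate animals. The p-values below, all of genes other than these 3, therefore measure the spread between these libraries, which may be technical.

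Bcl11a is a zinc finger protein that binds DNA and recruits repressive complexes such as NuRD. It is required for B cells and plasmacytoid dendritic cells and silences fetal globin genes in red cell precursors. Cbfa2t3, also called Eto2 or Mtg16, does not bind DNA itself. It is brought to genes by factors such as Tal1, E proteins and Gfi1, and it brings NCoR and histone deacetylases with it. Myb binds DNA directly, works with the coactivators Crebbp and Ep300, and keeps blood progenitors and immature lymphocytes in a dividing, undifferentiated state.

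The promoters are shown because the groups differ in RNA level and annotated start sites are where RNA can begin. Which start site these cells used is not known here. They come from RefSeq (GRCm38.p6, the assembly also called mm10) and run 5′ to 3′ along each gene up to the start site. Capitals mark matches, on either strand, to any of 5 motifs searched in the 250 bases before the start. The AP-1 motif was spelled TGANTCA. The STAT motif was spelled TTCNNNGAA. The core that NFAT binds was spelled GGAAA. The motif of GATA factors was spelled AGATAA. The E-box, which E proteins and Tal1 bind, was spelled CANNTG. Each line gives the gene, its position and strand, and the sequence.
Bcl11a chr11:24080445-24080669 plus strand: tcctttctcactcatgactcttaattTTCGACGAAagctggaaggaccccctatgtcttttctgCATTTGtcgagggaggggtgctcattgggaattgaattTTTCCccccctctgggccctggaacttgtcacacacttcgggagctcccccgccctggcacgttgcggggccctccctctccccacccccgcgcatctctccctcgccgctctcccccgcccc
Cbfa2t3 first start site chr8:122699110-122699359 minus strand: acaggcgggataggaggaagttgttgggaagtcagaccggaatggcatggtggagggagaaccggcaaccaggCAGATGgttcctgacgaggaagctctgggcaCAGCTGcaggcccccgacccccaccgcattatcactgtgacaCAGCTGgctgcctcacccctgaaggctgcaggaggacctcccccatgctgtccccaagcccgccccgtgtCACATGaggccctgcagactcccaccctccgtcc
Myb chr10:21160985-21161234 minus strand: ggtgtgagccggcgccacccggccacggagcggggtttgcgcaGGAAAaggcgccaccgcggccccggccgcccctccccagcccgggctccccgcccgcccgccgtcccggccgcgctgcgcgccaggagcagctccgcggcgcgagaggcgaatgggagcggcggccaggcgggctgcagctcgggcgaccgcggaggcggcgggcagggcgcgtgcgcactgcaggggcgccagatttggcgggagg

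The Bcl11a line stops 25 bases before the start site, where an annotated exon of another transcript begins. The annotated gene itself begins upstream of this window, at 24078056, so the window lies inside it. The Bcl11a window held 1 STAT match, 1 NFAT core and 1 E-box. The first Cbfa2t3 window held 4 E-boxes and none of the other motifs. A second RefSeq start site of Cbfa2t3, not printed, held 1 E-box. The Myb window held 1 NFAT core. No window held the AP-1 or the GATA motif. Of 32851 promoter windows of the same length, 6.75% held the AP-1 motif, 7.02% the STAT motif, 55.6% the NFAT core, 9.99% the GATA motif and 66.2% an E-box. The NFAT core and the E-box were thus present in most promoters. The windows were 62% (Bcl11a), 64% and 83.2% (the first and the second Cbfa2t3 site) and 81.2% (Myb) G or C, against a median of 52.4% over all windows.

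In the GENCODE annotation of mm10, Bcl11a (ENSMUSG00000000861) lies at chr11:24078056-24174123 on the plus strand, Cbfa2t3 (ENSMUSG00000006362) at chr8:122625141-122699109 on the minus strand and Myb (ENSMUSG00000019982) at chr10:21124935-21160984 on the minus strand. All 3 are protein coding. The annotation places genes that overlap each of them, among them the antisense genes Gm12064 over Bcl11a, Gm10612 over Cbfa2t3 and Gm26577 over Myb. None of the overlapping genes was among the rows of the table. The libraries were strand specific per the labels, but whether strand was used in counting is not given in the sources used here.

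All libraries of the table share 1 distribution of values, so read numbers were worked back from each library's ranked values. The median gene had 112 to 463 reads per library, and 155 to 809 genes per library had no read. Of the NK cell markers 10 of 10 were in the table, and their sum was high in all groups. It ran from 2473 to 3443 CPM in HD anti-NK1.1, 8327 to 9118 in HD unstimulated and 2888 to 3476 in LD anti-NK1.1 libraries. It ran from 4374 to 4955 in naive anti-NK1.1 and 11383 to 13733 in naive unstimulated libraries. Gzma was its largest member in HD cells, at 1529 CPM with anti-NK1.1 and 5640 CPM without. Some single markers were far lower. Klrb1c stood at 36.0 and 546 CPM in those groups, and Cd244a at 19.4 CPM in naive anti-NK1.1 cells. CPM here is the normalized value scaled to the same sum in each library. The file header gives 2 library pools. Pool 1 held all 5 HD libraries and LD replicate 1, and pool 2 held all 6 naive libraries and LD replicate 3. Between HD and naive cells the pool and the culture thus cannot be told apart. A pool term in a fit is set by LD replicates 1 and 3 alone, so calls lost with it can reflect lost precision. All 3 regulators passed the filter on low values, which 11543 genes passed, Bcl11a through the groups in which it was present.

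Bcl11a was present in 4 groups and had no read in the other. In HD unstimulated cells it had 0 reads in both libraries. In HD anti-NK1.1 cells it stood at 35.5, 41.0 and 32.6 CPM. In LD anti-NK1.1 cells it stood at 9.61 and 8.33 CPM. The HD libraries thus hold both its absence and nearly its highest level, and the anti-NK1.1 libraries of HD cells lie above those of LD cells. In naive anti-NK1.1 cells it stood at 19.9, 20.9 and 19.9 CPM. In naive unstimulated cells it stood at 30.1, 41.5 and 51.9 CPM. Its group means were, from the highest, 41.2 ± 10.9 CPM in naive unstimulated (n = 3), 36.4 ± 4.28 in HD anti-NK1.1 (n = 3), 20.2 ± 0.57 in naive anti-NK1.1 (n = 3) and 8.97 ± 0.91 in LD anti-NK1.1 cells (n = 2, all SD), with HD unstimulated cells last at 0 reads. The first pair in that order overlapped, and no other pair of groups did.

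How low Bcl11a can have been in HD unstimulated cells follows from depth. In those libraries 3 reads correspond to 0.513 CPM in replicate 1 and 0.402 CPM in replicate 2, and a count of 0 allows up to that level. These limits cover counting error only, and reads without molecular identifiers are not independent molecules. The recovered reads for Bcl11a were at least 387, 556 and 525 in HD anti-NK1.1 libraries, against 0 and 0 in HD unstimulated libraries. They were 301 and 152 in LD anti-NK1.1 and 267, 233 and 221 in naive anti-NK1.1 libraries, and at least 307, 315 and 469 in naive unstimulated libraries. Of the 471 genes without a read in both HD unstimulated libraries, 6 stood at 20 CPM or more in every naive unstimulated library, and Bcl11a was the only 1 that did so in every HD anti-NK1.1 library. This level of 20 CPM was set after the values had been seen. Bcl11a was chosen from these data for such a loss and return, so this count describes it and is no further evidence.

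Set against the floor of 3 reads per library, mean Bcl11a was at least 79.5-fold higher in HD anti-NK1.1 than in HD unstimulated cells. It was at least 90.1-fold lower in HD unstimulated than in naive unstimulated cells. Such bounds allow for the 0 reads alone and not for the spread of the other groups. In naive cells anti-NK1.1 went the other way: Bcl11a stood at 20.2 CPM with anti-NK1.1 and 41.2 CPM without, a fitted log2 difference of -0.99 ± 0.24 (SE). The ratio of the HD response to the naive response was at least 162-fold. After anti-NK1.1, HD cells exceeded naive cells by 0.84 ± 0.24 and LD cells by 2.01 ± 0.27 on the log2 scale, and LD cells differed from naive cells by -1.17 ± 0.27. Within pool 1 the difference between HD and LD cells was 1.91 (3 libraries against 1), and within pool 2 the difference between LD and naive cells was -1.27 (1 library against 3).

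**Figure D1:**
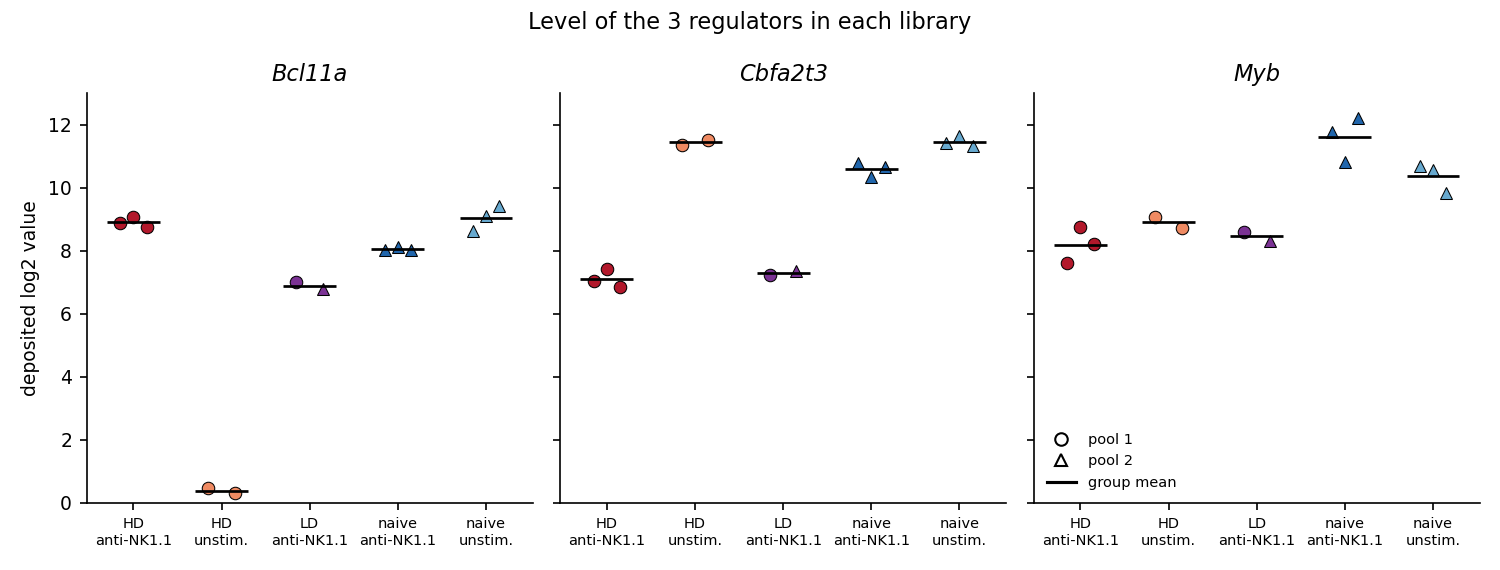
Deposited log2 value (vertical axis) of Bcl11a, Cbfa2t3 and Myb in each of the 13 libraries, by group; circles are pool 1, triangles pool 2 and bars group means. Bcl11a lies near 0 in HD unstimulated libraries alone, Cbfa2t3 is low in HD and LD anti-NK1.1 libraries, and Myb is highest in naive anti-NK1.1 libraries.

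Other cell types that use Bcl11a were followed through their markers. Of the plasmacytoid dendritic cell markers 9 of 10 were in the table, and their sum ran from 2584 to 3986 CPM in HD anti-NK1.1, 1478 to 1687 in HD unstimulated, 2258 to 2310 in LD anti-NK1.1, 5076 to 7667 in naive anti-NK1.1 and 2284 to 3157 in naive unstimulated libraries. Irf8, a factor that NK cells also express, made up most of it. Siglech, Ccr9 and Ly6d had 0 reads in all 5 HD libraries. Other members of the list were present there and had a higher mean with anti-NK1.1, as Bcl11a did. Pacsin1 stood at 3.04 ± 0.72 CPM in HD anti-NK1.1 and 0.626 ± 0.18 in HD unstimulated cells, Cox6a2 at 9.46 ± 0.61 and 4.18 ± 0.57, and Runx2 at 92.7 ± 17.8 and 49.8 ± 0.89 (SD, n = 3 and n = 2). Tcf4 stood at 156 CPM in HD anti-NK1.1 and 196 CPM in HD unstimulated cells, and Spib had 1 read in the 5 libraries. Siglech stood at 0.227 ± 0.19 CPM in LD anti-NK1.1 (SD, n = 2), 11.4 ± 0.99 in naive anti-NK1.1 and 23.7 ± 0.96 in naive unstimulated cells (SD, n = 3 each). Of the B cell markers 7 of 10 were in the table, and their sum ran from 2.03 to 2.50 CPM in HD anti-NK1.1, 4.35 to 6.46 in HD unstimulated, 1.21 to 3.36 in LD anti-NK1.1, 2.62 to 5.5 in naive anti-NK1.1 and 12.8 to 18.6 in naive unstimulated libraries. Cd79a and Ms4a1, B cell surface proteins, had 0 reads in all 5 HD libraries. In naive cells Siglech, Ly6d, Spib and the B cell sum were lower with anti-NK1.1, as Bcl11a was. Ccr9 stood at 6.11 CPM in naive anti-NK1.1 and 3.12 CPM in naive unstimulated cells, Cox6a2 at 51.5 and 20.97 CPM, and Pacsin1 at 18.1 and 4.66 CPM, the other way from Bcl11a. The part of these cell types in the level of Bcl11a was not tested. In such bulk samples fewer cells of a type and less RNA per cell cannot be told apart.

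Cbfa2t3 was high in both unstimulated groups and low in cultured cells after anti-NK1.1. It stood at 9.92, 12.9 and 8.70 CPM in HD anti-NK1.1 libraries, against 201 and 223 CPM in HD unstimulated libraries. It stood at 11.2 and 12.5 CPM in LD anti-NK1.1 libraries. The HD and LD anti-NK1.1 libraries overlapped, and all lay far below the HD unstimulated pair. In naive cells it stood at 135, 98.9 and 123 CPM with anti-NK1.1, against 209, 244 and 196 CPM without. The naive groups did not overlap, and naive anti-NK1.1 cells held a place between the cultured anti-NK1.1 cells and the unstimulated cells. Group means were 216 ± 24.8 CPM in naive unstimulated, 212 ± 15.9 in HD unstimulated, 119 ± 18.4 in naive anti-NK1.1, 11.9 ± 0.87 in LD anti-NK1.1 and 10.5 ± 2.18 in HD anti-NK1.1 cells (SD). The first pair and the last pair of this order overlapped.

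The HD response of Cbfa2t3 was -4.34 ± 0.22 on the log2 scale, a level 20.2-fold lower with anti-NK1.1. The naive response was -0.87 ± 0.20, a level 1.82-fold lower. The HD response minus the naive response was -3.47 ± 0.30. The unstimulated groups overlapped, with a difference of -0.03 ± 0.22 between HD and naive cells. After anti-NK1.1, HD cells differed from naive cells by -3.50 ± 0.20, LD cells from naive cells by -3.31 ± 0.22, and HD from LD cells by -0.19 ± 0.22. Within pool 2 the single LD library differed from the 3 naive anti-NK1.1 libraries by -3.23. Cbfa2t3 was detected everywhere: the HD anti-NK1.1 libraries held 101, 165 and 126 reads of it, and the LD libraries 353 and 227.

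Cbfa2t3 is best known in red cell and platelet precursors, whose markers differed between the groups. Of these 10 of 11 were in the table, and their sum ran from 0.682 to 1.31 CPM in HD anti-NK1.1, 1.63 to 2.13 in HD unstimulated, 64.5 to 99.4 in LD anti-NK1.1, 109 to 129 in naive anti-NK1.1 and 141 to 229 in naive unstimulated libraries. Hba-a1, Klf1 and Gp9 had 0 reads in all 5 HD libraries. In LD anti-NK1.1 cells the sum was mostly platelet genes, Pf4 at 56.0, Ppbp at 15.2 and Itga2b at 7.32 CPM, while the red cell genes Hba-a1, Hbb-bt and Klf1 stood at 0.184, 0.160 and 0.0699 CPM. In naive anti-NK1.1 cells Hba-a1 stood at 23.2 CPM and Pf4 at 26.3 CPM. Cbfa2t3 was at 201 and 223 CPM in HD unstimulated libraries, where that sum was 1.63 to 2.13 CPM. The part of these cells in the level of Cbfa2t3 was not tested.

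Myb was highest in naive cells after anti-NK1.1 and low in all cultured cells. It stood at 14.9, 32.9 and 22.3 CPM in HD anti-NK1.1 libraries, against 41.2 and 32.0 CPM in HD unstimulated libraries. It stood at 29.4 and 24.2 CPM in LD anti-NK1.1 libraries. In naive cells it stood at 268, 137 and 358 CPM with anti-NK1.1, against 127, 114 and 69.6 CPM without. No naive library lay as low as any cultured one, and the naive groups stood apart by a narrow gap. Group means were 255 ± 111 CPM in naive anti-NK1.1, 104 ± 30.1 in naive unstimulated, 36.6 ± 6.48 in HD unstimulated, 26.8 ± 3.69 in LD anti-NK1.1 and 23.4 ± 9.08 in HD anti-NK1.1 cells (SD). HD anti-NK1.1 libraries overlapped both HD unstimulated and LD anti-NK1.1 libraries. The library with the fewest exact reads for Myb, HD anti-NK1.1 replicate 1, held 155.

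The responses of Myb had opposite signs. With anti-NK1.1 it differed by -0.71 ± 0.40 in HD cells, where the groups overlapped, and by 1.24 ± 0.35 in naive cells on the log2 scale. The difference of the responses was -1.94 ± 0.53. HD unstimulated cells differed from naive unstimulated cells by -1.47 ± 0.40. After anti-NK1.1, HD cells differed from naive cells by -3.41 ± 0.35, LD cells from naive cells by -3.14 ± 0.40, and HD from LD cells by -0.27 ± 0.40. Within pool 2 the LD library differed from the naive anti-NK1.1 libraries by -3.28.

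**Figure D2:**
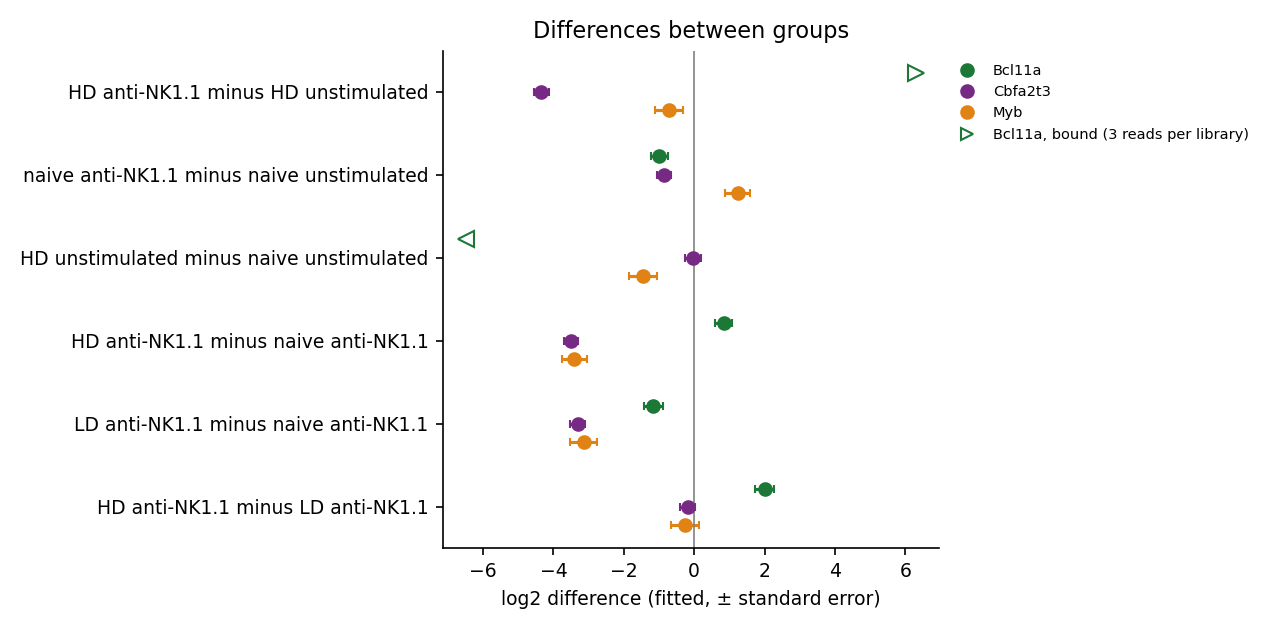
Fitted log2 difference (horizontal axis, bars are standard errors) of each regulator in 6 comparisons between groups; open triangles are bounds for Bcl11a against 3 reads per library, which point the way the value may extend. Bcl11a is the only one of the 3 to the right of 0 in the HD response, Cbfa2t3 lies at -4.34 there, and Myb lies to the right of 0 in the naive response alone.

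Blood progenitors, which depend on Myb, were followed in the same way. Of their markers 9 of 10 were in the table, and their sum ran from 59.0 to 97.7 CPM in HD anti-NK1.1, 73.3 to 80.4 in HD unstimulated, 149 to 161 in LD anti-NK1.1, 127 to 271 in naive anti-NK1.1 and 58.9 to 88.5 in naive unstimulated libraries. Kit, a receptor of progenitors, made up most of that sum, at 201 ± 84 CPM in naive anti-NK1.1 and 31.4 ± 13 in naive unstimulated cells (SD, n = 3 each). Cd34 stood at 1.22 ± 0.44 CPM in naive anti-NK1.1 and 2.53 ± 0.56 in naive unstimulated cells, and it had 0 reads in all 5 HD libraries, as did Flt3 and Mpo. The mean sum was thus higher in the group in which Myb was highest, through Kit. Cd34 and all the other markers in the table had lower means there than in naive unstimulated cells. Gata2 stood at 8.83 CPM with anti-NK1.1 and 21.5 CPM without, and Meis1 at 4.60 and 4.92 CPM. The part of these cells in the level of Myb was not tested. Basophil and mast cell markers (8 of 8 in the table) summed to 22.4 to 36.3 CPM in HD anti-NK1.1, 12.3 to 16.2 in HD unstimulated, 77.3 to 77.5 in LD anti-NK1.1, 58.1 to 72.9 in naive anti-NK1.1 and 109 to 177 in naive unstimulated libraries. Macrophage and dendritic cell markers (14 of 14) summed to 116 to 149, 172 to 248, 354 to 483, 748 to 920 and 808 to 947 CPM in the same order of groups, and T cell markers (5 of 10) to 35.4 to 42.7, 38.5 to 44.7, 24.8 to 29.6, 38.1 to 42.2 and 61.8 to 71.4 CPM.

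The paralogs were measured in the same libraries. Bcl11b, the T cell relative of Bcl11a, stood at 1.89 ± 0.96 CPM in HD anti-NK1.1 and 7.19 ± 0.36 in HD unstimulated cells. Its HD response was -2.0 ± 0.41 on the log2 scale (limma, adjusted p = 0.002), in the direction opposite to Bcl11a. It stood at 4.22 ± 0.71 CPM in LD anti-NK1.1, 12.3 ± 3.4 in naive anti-NK1.1 and 17.4 ± 5.8 in naive unstimulated cells (SD). Cbfa2t2, the relative of Cbfa2t3, stood between 7.22 and 10.2 CPM in all 5 group means and was called in no comparison. Runx1t1, the third member of that family, was below the filter, with 23 reads over the 3 naive anti-NK1.1 libraries, 0 reads over the naive unstimulated libraries and at most 7 reads in any other library.

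Mybl1 and Mybl2, relatives of Myb, had their highest group means in HD unstimulated cells. Mybl2 stood at 2.45 ± 1.1 CPM in HD anti-NK1.1 and 15.8 ± 2.34 in HD unstimulated cells, a log2 difference of -2.74 ± 0.43 (limma, adjusted p = 0.00023). In HD unstimulated cells it exceeded naive unstimulated cells by 2.66 ± 0.43 (limma, adjusted p = 0.000267), at 15.8 CPM in HD and 2.44 ± 0.46 CPM in naive cells. Mybl1 stood at 14.4 ± 3.82 CPM in HD unstimulated and 0.862 ± 0.77 in naive unstimulated cells, in 1 of which it had no read. In naive cells Mybl2 fell with anti-NK1.1 by 1.77 on the log2 scale (limma, adjusted p = 0.00321). It stood at 0.66 ± 0.14 CPM with anti-NK1.1 (SD, n = 3). The reads over the 3 libraries were 30 with anti-NK1.1 and 75 without, so both levels were low.

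**Figure D3:**
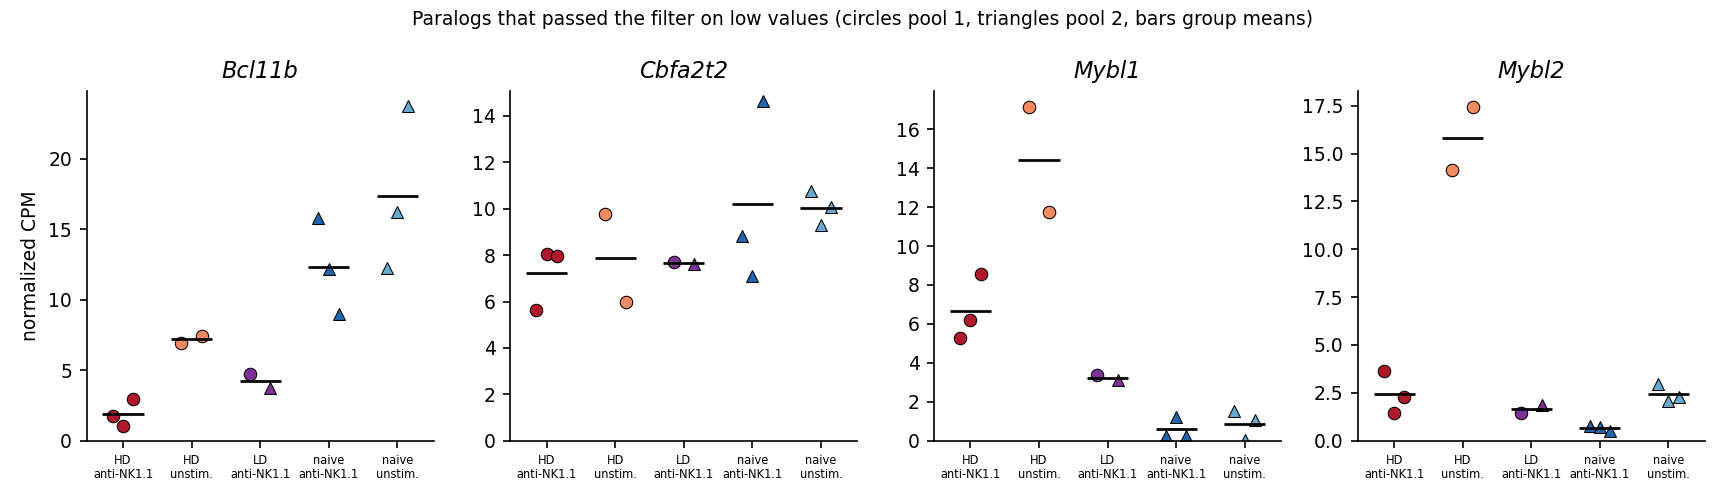
Normalized CPM (vertical axis, starting at 0) of the 4 paralogs that passed the filter on low values, by group; points are libraries, circles pool 1 and triangles pool 2, and bars group means. Mybl1 and Mybl2 are highest in HD unstimulated libraries, Bcl11b is lowest in HD anti-NK1.1 libraries, and Cbfa2t2 lies between 5.64 and 14.6 CPM in all 13 libraries.

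The corepressors that Bcl11a recruits were followed as a list of 15 NuRD and CoREST genes. In the HD response 0 rose and 3 fell, where over all genes tested 15.9% were called higher and 17.2% lower. Among those that fell was Chd3, a remodeller of NuRD, by 1.08 ± 0.27 on the log2 scale (limma, adjusted p = 0.00663), at 34.8 ± 6.5 CPM in HD anti-NK1.1 and 73.8 ± 18 in HD unstimulated cells. Without HD unstimulated replicate 2 this call was lost and the list gave 0. In the naive response 1 rose and 3 fell, where 14.5% of genes were called higher and 14.7% lower. The gene that rose was Rcor1, the scaffold of CoREST, by 1.16 ± 0.23 (limma, adjusted p = 0.0019). Chd3 fell in naive cells too, with a log2 difference of -0.92 ± 0.24 (limma, adjusted p = 0.0104). That call was lost without naive anti-NK1.1 replicate 5. Of the list, 0 were higher and 2 lower in HD than in naive unstimulated cells, against 16.6% and 17.3% of all genes, and the call of the weaker, Mbd3, was lost in 12 of 15 alternatives. Chd3 was lower by 2.21 ± 0.27 (limma, adjusted p = 2.45e-05). After anti-NK1.1, 2 were higher and 7 lower in HD than in naive cells, against 21.1% and 22.4% of all genes, and 4 in all were called with the library pool as a term. The list's median log2 difference there was -0.57, beside 0.02 over all genes. Hdac1, a histone deacetylase, was higher by 1.37 ± 0.30 (limma, adjusted p = 0.00226), a call lost with the pool as a term.

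Genes that other work links to loss of Bcl11a in lymphoid and plasmacytoid dendritic cells were 14, of which 13 were tested. In the HD response 4 rose and 1 fell, where 15.9% of all genes were called higher and 17.2% lower, and 3 in all were called without HD unstimulated replicate 2. Bcl2l1, which blocks cell death, rose by 2.36 ± 0.21 (limma, adjusted p = 1.93e-06), at 240 ± 32 CPM in HD anti-NK1.1 and 46.6 ± 5.2 in HD unstimulated cells. Il7r, the receptor of interleukin-7, fell by 1.32 ± 0.27 (limma, adjusted p = 0.00196). Without stimulation 2 were higher and 5 lower in HD than in naive cells, against 16.6% and 17.3% of all genes, and 4 in all were called with the pool as a term. Id2, an inhibitor of E proteins that NK cells require, was higher by 1.76 ± 0.28 (limma, adjusted p = 0.000265), at 4277 ± 371 CPM in HD and 1261 ± 37.8 CPM in naive cells. Il7r was lower by 2.64 ± 0.27 (limma, adjusted p = 5.35e-06). Among those called lower, Flt3 and Spib had 0 reads in HD unstimulated libraries and at most 3.96 CPM as a mean in naive ones. In the naive response 3 rose and 1 fell, against 14.5% and 14.7% of all genes, and Irf8 rose by 1.33 ± 0.26 (limma, adjusted p = 0.00161).

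The corepressor partners of Cbfa2t3, 9 genes, gave 1 higher and 1 lower in the HD response and 2 higher and 0 lower in the naive response. Over all genes 15.9% were called higher and 17.2% lower in the HD response and 14.5% and 14.7% in the naive response, shares near these counts. The HD count was 1 without HD unstimulated replicate 2. Irf2bp2, a corepressor that binds Cbfa2t3, rose in both, by 1.14 ± 0.22 in HD cells (limma, adjusted p = 0.0011) and by 1.43 ± 0.19 in naive cells (limma, adjusted p = 0.000104). Its level was 343 ± 38 CPM in HD anti-NK1.1 and 155 ± 18 in HD unstimulated cells. Ncor1 was lower by 1.23 ± 0.30 between HD and naive unstimulated cells (limma, adjusted p = 0.00598). Its call was lost with the library pool as a term and without HD unstimulated replicate 1.

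The proteins that bring Cbfa2t3 to DNA, 16 genes, were 2 higher and 2 lower in the HD response, against 15.9% and 17.2% of all genes, and 3 higher and 0 lower in the naive response, against 14.5% and 14.7%. The naive count was 6 with voom or with an offset of 8, and 5 with the compared groups alone. Rbpj, the DNA-binding protein of Notch signalling, rose in both, by 2.65 ± 0.37 in HD cells (limma, adjusted p = 8.82e-05) and by 3.74 ± 0.33 in naive cells (limma, adjusted p = 2.01e-06). Tcf3, an E protein, fell in HD cells by 1.68 ± 0.35 (limma, adjusted p = 0.00204). After anti-NK1.1, 0 were higher and 14 lower in HD than in naive cells, against 21.1% and 22.4% of all genes, with a list median of -1.45, beside 0.02 over all genes. With the library pool as a term 4 genes of the list were called there. The 14 included factors of red cell precursors: Gata1 had 0 reads in the HD anti-NK1.1 libraries, against 6.19 ± 1.7 CPM in naive anti-NK1.1 libraries, and Gfi1b had 0 reads, against 4.30 ± 1.2 CPM. Between LD and naive cells after anti-NK1.1, 0 were higher and 7 lower, against 6.57% and 7% of all genes. That count was 0 without LD replicate 1 or with the pool as a term, 2 without naive anti-NK1.1 replicate 5, and 4 without naive anti-NK1.1 replicate 4 or LD replicate 3. Between HD and LD cells 0 were higher and 4 lower, against 3.27% and 5.33% of all genes, and 1 was called with the pool as a term or without LD replicate 3. The red cell and platelet sums given above differed between the same groups. The part of these cells in the counts was not tested.

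Cofactors and protein regulators of Myb were 11, of which 10 were tested. In the HD response 1 rose and 1 fell, where 15.9% of all genes were called higher and 17.2% lower. In the naive response 1 rose and 0 fell, where the shares were 14.5% and 14.7%. These counts are near the shares over all genes. The HD count was 1 without HD anti-NK1.1 replicates 1 or 2 or either HD unstimulated replicate, with voom, with median-ratio scaling and with no variance trend. Hipk2, a kinase that acts on MYB protein, rose in both, by 2.10 ± 0.25 in HD cells (limma, adjusted p = 2.92e-05) and by 1.24 ± 0.23 in naive cells (limma, adjusted p = 0.00111). After anti-NK1.1, 0 were higher and 4 lower in HD than in naive cells, against 21.1% and 22.4% of all genes, Kmt2a, a histone methyltransferase, by 1.78 ± 0.28 (limma, adjusted p = 0.000173). That count was 1 with the pool as a term or without naive anti-NK1.1 replicate 4, and 2 without naive anti-NK1.1 replicate 1 or HD anti-NK1.1 replicates 1 or 2.

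Genes described as MYB targets in blood cells were 14, of which 12 were tested. In the naive response 1 rose and 3 fell, against 14.5% and 14.7% of all genes. Kit rose by 2.66 ± 0.37 (limma, adjusted p = 0.000124). Lck, a kinase of receptor signalling, fell by 2.17 ± 0.21 (limma, adjusted p = 5.79e-06), at 166 ± 5.5 CPM with anti-NK1.1 and 758 ± 140 CPM without. In the HD response 2 rose and 3 fell, against 15.9% and 17.2%. Myc, a driver of growth, rose by 2.02 ± 0.25 (limma, adjusted p = 3.46e-05), at 56.0 ± 3.0 CPM with anti-NK1.1 and 13.8 ± 0.9 CPM without. Without stimulation 3 were higher and 5 lower in HD than in naive cells, against 16.6% and 17.3%, and 5 in all with the pool as a term. Ccnb1, a mitotic cyclin, was higher by 3.29 ± 0.41 (limma, adjusted p = 3.28e-05), and Tcf7, a factor of lymphocyte precursors, was lower by 2.36 ± 0.22 (limma, adjusted p = 1.99e-06). After anti-NK1.1, 3 were higher and 4 lower in HD than in naive cells, against 21.1% and 22.4%. With the pool as a term 4 in all were called. In LD against naive cells 3 were higher and 1 lower, against 6.57% and 7%. That count was 2 in all without LD replicate 3 or with the compared groups alone. Myc and Ccnb1 were higher in HD and in LD than in naive cells. Between HD and LD cells 0 were higher and 3 lower, against 3.27% and 5.33%, and 5 in all with voom.

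Other transcription factors of progenitors and lymphocytes, 37 of 38 tested, were 1 higher and 25 lower between HD and naive unstimulated cells, against 16.6% and 17.3% of all genes, with a median of -1.81, beside 0.02 over all genes. After anti-NK1.1, 1 was higher and 33 lower in HD than in naive cells, against 21.1% and 22.4% of all genes, with a median of -2.31. With the pool as a term, 13 and 15 genes of the list were called in these comparisons. Some genes, among them Gata1, Gata2, Tal1 and Gfi1b, were also in the list of proteins that bring Cbfa2t3 to DNA. Tcf7 and Zeb2 were also among the MYB targets, so the counts of these lists are not independent. The red cell, platelet, macrophage and dendritic cell marker sums given above differed between the same groups, as did pool and culture. The part of any of these in the counts was not tested. In the HD response 4 rose and 10 fell, against 15.9% and 17.2%. Zeb2, a repressor needed for NK cell maturation, rose by 3.68 ± 0.22 (limma, adjusted p = 6.21e-08), at 614 ± 88 CPM with anti-NK1.1 and 47.5 ± 1.1 CPM without. Sox4 rose by 2.01 ± 0.20 (limma, adjusted p = 4.18e-06), and Lef1 fell by 2.0 ± 0.20 (limma, adjusted p = 5.52e-06). In the naive response 4 rose and 3 fell, against 14.5% and 14.7%, and 11 and 12 in all were called with voom and with an offset of 8. Bach2, a repressor of lymphocyte activation, rose by 1.88 ± 0.20 (limma, adjusted p = 1.33e-05), and Tox, which NK cell development requires, fell by 1.04 ± 0.20 (limma, adjusted p = 0.00169). Between LD and naive cells after anti-NK1.1, 0 were higher and 13 lower, against 6.57% and 7% of all genes, and Bach2 was lower by 1.70 ± 0.23 (limma, adjusted p = 0.00031). That count was 7 without LD replicate 1, without naive anti-NK1.1 replicate 5 or with the pool as a term, and 8 without LD replicate 3.

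For each regulator the genes most like it were sought among 11316 tested genes with a named symbol, by Pearson correlation of the log2 values over the 13 libraries. All genes share the libraries, their groups and their depth, so these are descriptions. Most like Bcl11a were Ifrd1 (r = 0.97), Slc18a2, Thbs1, Tubb2a and Zeb2 (r = 0.95). Spearman's rho ran from 0.52 to 0.72 for these 5. Without the HD unstimulated libraries, the pair farthest from the median of Bcl11a, r was 0.29 to 0.64, so the likeness rests on those libraries. Ifrd1 stood at 113 CPM in HD anti-NK1.1 and 21.2 CPM in HD unstimulated cells, and at 120 CPM in naive anti-NK1.1 and 114 CPM in naive unstimulated cells. Slc18a2 and Thbs1 were low, at 3.01 and 1.95 CPM in HD anti-NK1.1 cells. In HD unstimulated cells both stood at 0.0233 CPM, the value of 0 reads. Most opposite to Bcl11a were Igdcc4, Tpi1, an enzyme of glycolysis, and Fdft1, an enzyme of cholesterol synthesis. Tpi1 stood at 76.4 CPM in HD anti-NK1.1 and 782 CPM in HD unstimulated cells. Without the HD unstimulated libraries r was -0.07 for Tpi1, -0.66 for Fdft1 and -0.79 for Igdcc4. Igdcc4 stood at 1.57 CPM in HD unstimulated cells and at most 0.119 CPM as a mean in the other groups. Its r without that pair thus rests on values near the floor.

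Most like Cbfa2t3 were Jarid2 (r = 0.97, rho = 0.88), a partner of the Polycomb complex, with Esyt2, Abr, Trafd1 and Tax1bp3 (r = 0.96). Jarid2 stood at 37.9 CPM in HD anti-NK1.1 and 107 CPM in HD unstimulated cells. Most opposite were Ccl1, a chemokine, Lta, a cytokine of the tumour necrosis factor family, and Bcl2l1. Ccl1 stood at 7546 CPM in HD anti-NK1.1 and 45.2 CPM in HD unstimulated cells, with r = -0.98. Without the libraries farthest from its median, HD anti-NK1.1 replicates 1 and 3, r with Cbfa2t3 ran from 0.95 to 0.97 for the alike and from -0.97 to -0.96 for the opposite genes. HD anti-NK1.1 replicate 2 and both LD libraries, also low in Cbfa2t3, were kept. This check thus cannot show whether the likeness rests on the low libraries.

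Most like Myb were Crim1 (r = 0.96, rho = 0.97), Oasl2, an interferon-induced gene, Pde4b, a phosphodiesterase that degrades cyclic AMP, Gzmk, a granzyme, and Marcks (r = 0.94). Gzmk stood at 28.4 CPM in naive anti-NK1.1 and 15.9 CPM in naive unstimulated cells, and at 5.04 CPM in HD anti-NK1.1 and 7.96 CPM in HD unstimulated cells. Most opposite were Smyd2, Mecr and Gadd45g, a stress-induced gene. Gadd45g stood at 56.6 CPM in HD anti-NK1.1 and 2.69 CPM in naive anti-NK1.1 cells. Without naive anti-NK1.1 replicates 1 and 5, the farthest libraries, r was 0.91 to 0.93 for the alike genes.

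**Figure D4:**
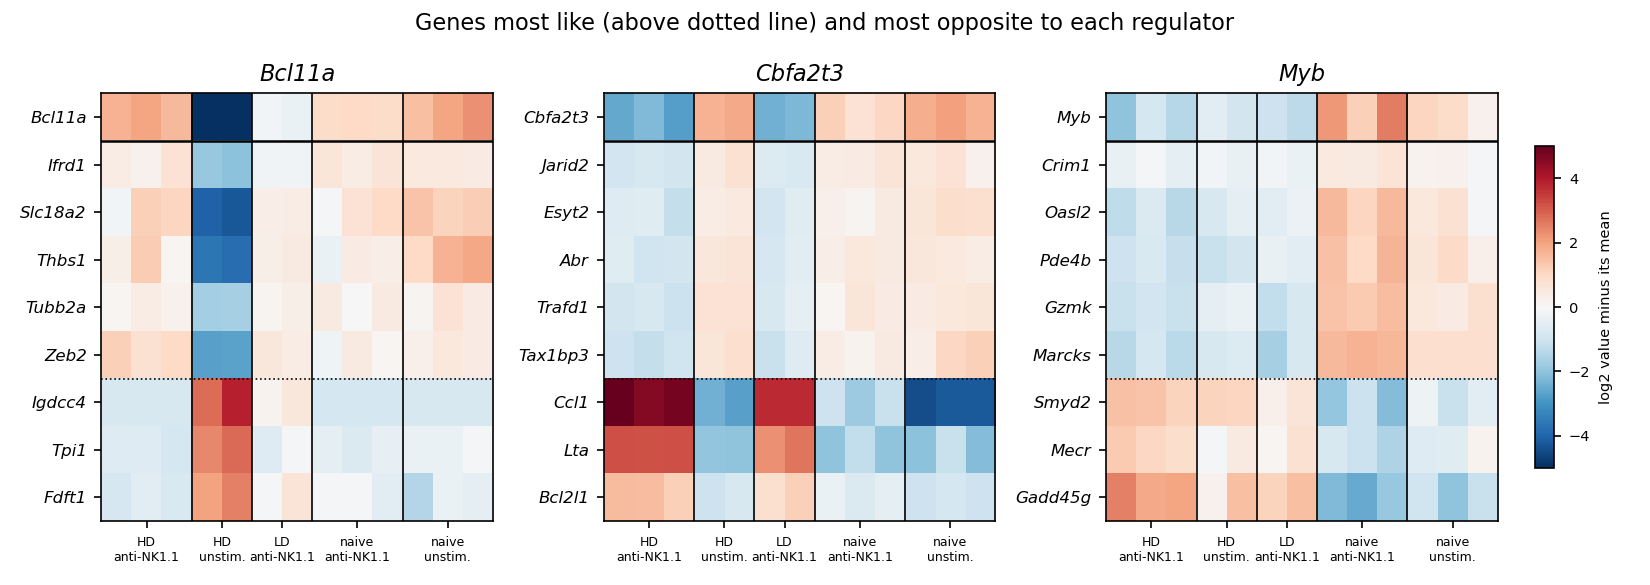
Log2 value minus the gene's mean over the 13 libraries (colour, which saturates at 5 either way) for each regulator (top row), the 5 genes most like it and, under the dotted line, the 3 most opposite; columns are libraries by group. The genes near Bcl11a are low in HD unstimulated libraries, those near Cbfa2t3 are low in HD and LD anti-NK1.1 libraries, and those near Myb are high in naive anti-NK1.1 libraries.

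The difference of the HD and naive responses was called higher for 7.22% and lower for 8.01% of all genes tested. Of the lists, the other transcription factors gave 4 higher and 9 lower and the MYB targets 2 higher and 2 lower. The partners that bring Cbfa2t3 to DNA gave 1 higher and 2 lower, and 5 in all without HD unstimulated replicate 1. The genes linked to loss of Bcl11a gave 2 higher and 3 lower.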

How the data were processed

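Libraries of poly(A) RNA were made strand specific and pooled after first-strand synthesis, per the labels' protocols. The build was mm10, per the submitters' processing notes, and the aligner and counter are not given in the sources used here. Although its name speaks of counts, the table deposited by the authors holds log2 of quantile-normalized counts with 1 added. The unit was read from the values: back-transformed and multiplied by 13, 96.2% of low values lay within 0.05 of a whole number. CPM divides a back-transformed value by the library's sum. Reads were recovered from the order of distinct values, exactly up to rank 7000 of a library and as lower bounds above it.

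Genes needed a back-transformed value of 10 in at least 2 libraries, which removed 446. One model with 5 groups was fitted to 13 libraries with limma 3.58.1 in R 4.3.3 (trend, empirical Bayes, two-sided, Benjamini-Hochberg under 0.05) and checked on simulated data. For 2 naive anti-NK1.1 libraries (replicates 1 and 4) the title gave the group. A fold against 0 reads used a floor of 3 reads per library. The genes, lists and tests were chosen with earlier results of these data known. Named were the regulators, their paralogs, the genes most like and opposite, and up to 2 called genes per list, direction and comparison. Not all that this allows are printed. After values had been seen, likeness was restricted to genes with a named symbol, and reads above rank 7000 were estimated for the alternatives that rescale reads. Replicate numbers were not taken to pair samples. Tables and plots used Python 3.11.15, pandas 2.3.3, numpy 2.4.6 and matplotlib.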

Additional observations from a re-analysis of the deposited data

Results flagged for a closer look

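Bcl11a responded in opposite directions to anti-NK1.1: all 3 HD libraries lay above both HD unstimulated libraries, and all 3 naive libraries lay below all 3 naive unstimulated libraries. The ratio of the HD fold change to the naive fold change, from group means and the floor of 3 reads per library, was at least 162. That bound allows for the 0 reads alone and not for the spread between libraries. The difference was not tested because the gene was chosen for it.

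Of 33 genes of the lists and paralogs named for either response, 17 had responses that differed between HD and naive cells by limma's interaction term at an adjusted p under 0.05, where 7.22% of all genes were called higher and 8.01% lower. These genes were named because they were called in a response, which by itself raises that share. The HD response minus the naive response, on the log2 scale, was above 0 for Bcl2l1 (1.88), Myc (2.51), Sox4 (2.27), Tox (1.34) and Zeb2 (3.97). It was below 0 for Bach2 (-1.31), Gfi1 (-2.35), Il7r (-1.80), Kit (-2.79), Lef1 (-2.42), Rcor1 (-1.41), Runx1 (-1.02), Ssbp2 (-1.35), Tbl1xr1 (-1.21), Tcf7 (-1.30) and Trp53 (-1.30). The adjusted p-values of limma ran from 1.16e-06 for Zeb2 to 0.0403 for Runx1. Tal1 was also above 0, at 2.77, but the HD unstimulated libraries held 2 reads of it in all, so its fitted value depends on the offset. The HD and naive responses come from separate libraries, and HD and naive libraries were in different pools.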

How the results depend on the processing

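Of the values that answer a comparison, 397 stayed close to the reported one under the alternatives and 28 moved, and no regulator's difference that exceeded the residual spread changed sign. Values near 0 did change sign. For Cbfa2t3 between HD and naive unstimulated cells the difference was 0.03 with median-ratio scaling or voom, 0.12 with pool as a term, and -0.10 to 0.06 with a library left out. For Myb between HD and LD cells it was 0.02 without HD anti-NK1.1 replicate 1. The rule that sign changes within the residual spread are not counted was set after these values had been seen. With median-ratio scaling the log2 bounds of Bcl11a became 7.01 (HD response), -7.02 (HD against naive unstimulated) and 8.06 (difference of responses), and they ranged from 6.15 to 6.50, -6.68 to -6.29 and 7.14 to 7.53 with a library left out. The 5 genes most like Bcl11a held 0 places among the 50 most alike by Spearman correlation, those of Cbfa2t3 held 1 and those of Myb 4. The cause was not tested.

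Same-numbered libraries correlated in their deviations with r from -0.143 to 0.162 (median -0.02), so the numbers were not taken as pairs. In groups of 2 libraries the deviations mirror each other, so this check cannot exclude pairing. With the replicate block, Myb gave 0.67 in the naive response, -2.17 between HD and naive unstimulated cells and -1.32 for the difference of responses, Cbfa2t3 -0.31 between HD and naive unstimulated cells, and Bcl11a -0.94 between LD and naive cells. Genes called under that block were 1864 (3376 without it) in the naive response, 2042 (3909) for HD against naive unstimulated, 2296 (5023) for HD against naive and 225 (1566) for LD against naive after anti-NK1.1, 577 (993) for HD against LD and 856 (1758) for the difference. Under it the other transcription factors gave 4 calls between LD and naive cells (13), the partners that bring Cbfa2t3 to DNA gave 1 for the difference of responses (3), and Bach2 lost its call between LD and naive cells. With library pool as a term 1006 genes were called for HD against naive unstimulated and 1107 for HD against naive after anti-NK1.1. There were 658 for LD against naive after anti-NK1.1 and 444 for HD against LD. That term rests on LD replicates 1 and 3 alone, so these lower counts can reflect lost precision. With the compared groups alone 905 were called for LD against naive. With a library left out, calls ran from 2509 to 3316 in the HD response (lowest without HD unstimulated replicate 2), 2417 to 3553 for HD against naive unstimulated (lowest without HD unstimulated replicate 1), 660 to 1274 for LD against naive (660, 819 and 1026 without LD replicate 1, LD replicate 3 and naive anti-NK1.1 replicate 5) and 444 to 669 for HD against LD (444 and 604 without LD replicates 3 and 1, and 651 and 654 without HD anti-NK1.1 replicates 1 and 2). For named list genes 110 calls were lost under an alternative and none reversed. Groups of 2 and 3 libraries and the differing depth limit what low genes can show.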
